A study of Mus musculus with 4 samples.

Results

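Histone acetyltransferases were followed here through 8 genes: Ep300 (p300), Crebbp (CBP), Kat2a (GCN5), Kat2b (PCAF), Kat5 (TIP60), Kat6a (MOZ), Kat6b (MORF) and Kat7 (HBO1). A member was taken where the platform annotation gave a probe set exactly 1 gene symbol and that symbol, or a synonym, was in this set. All 8 were found, each with 1 probe set, among 19938 genes named in this way. RNA was hybridised to 4 arrays, 2 per group, of the type Affymetrix Mouse Gene 1.0 ST, whose probes lie along whole transcripts. The amount of RNA was given only as a range, 800 pg to 50 ng, the same for every sample. The cells were bone marrow LSK cells sorted as lacking surface Flt3; LSK stands for absent lineage markers with Sca-1 and Kit present, and this fraction is rich in blood stem cells. Every mouse carried Mx1-Cre, a recombinase driven by an interferon-responsive promoter that is active in many cells besides blood, and every mouse was given pIpC, the double-stranded RNA that induces it. Marrow was taken 4 days after the last dose from mice of 6 to 8 weeks, backcrossed for 4 generations to C57/BL6. Controls were GABPa(FL/+), with 1 floxed Gabpa allele beside a wild-type one, so pIpC can remove 1 allele in them too. The group labelled GABPα-deficient was GABPa(FL/-), with the floxed allele beside a null one. Nothing in the labels says whether a sample was 1 animal or a pool, so the p-values speak of the spread among these 4 samples alone.

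Histone acetyltransferases transfer an acetyl group from acetyl-CoA to lysines of histone tails, which loosens chromatin and creates docking sites for bromodomain proteins. p300 and CBP are closely related coactivators that bind many transcription factors at enhancers. GCN5 and PCAF are alternative catalytic subunits of the SAGA and ATAC complexes. TIP60, MOZ, MORF and HBO1 belong to the MYST family, and each works inside a multi-subunit complex. In blood, p300, CBP and MOZ are known for roles in stem cell maintenance, and their genes are partners in leukaemia translocations.

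The targeted gene did not separate the groups. The Gabpa probe set read 8.43 and 7.28 (log2) on control replicates 1 and 2, and 6.43 and 7.85 on the arrays labelled deficient, so the library labelled deficient replicate 2 lay above control replicate 2. A probe set outside the deleted exons would check nothing, with their position not given in the sources used here. Of the genes that define the sorted cells, Kit was lower on both arrays labelled deficient (7.70 and 8.50, against 10.21 on each control array). Flt3, whose surface protein the sort excluded, was lower too (5.68 and 5.95, against 8.43 and 9.26 in the controls). Its control values stood at the 85.3 and 90.9 percentiles of their arrays. The progenitor marker Cd34 was also lower (8.00 and 7.53, against 11.30 and 11.31). Stem and progenitor markers averaged 8.35 and 8.24 in the control replicates and 7.02 and 7.36 in the deficient-labelled ones, with 6 of 11 measured genes lower and 0 higher at an unadjusted p under 0.05, where 5.25% of all probe sets were lower and 6.64% higher. Erythroid markers averaged 6.86 and 6.91, against 8.59 and 9.33 (0 lower and 7 of 10 higher). Macrophage markers averaged 6.05 and 6.19, against 7.49 and 6.81 (0 lower and 6 of 12 higher), and stromal and endothelial markers 6.06 on each control array, against 7.23 and 7.02 (0 lower and 6 of 12 higher). Other marker lists had fewer such genes. Granulocyte and monocyte markers had 1 of 12 lower and 0 higher. B cell markers had 0 lower and 1 of 9 higher, and T and NK cell markers 0 lower and 2 of 9 higher. The part of these marker differences in the results that follow was not tested. In bulk RNA, fewer cells of one type and less RNA per cell cannot be told apart.

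The promoter sequence of 7 of the 8 genes was in the RefSeq table of mouse assembly GRCm38.p6, and Kat6a had no entry. GABP is an ETS-family factor, and ETS factors recognise DNA around the core letters GGAA. The 100 bases upstream of the annotated start are shown for the 4 genes with the smallest unadjusted p, with any GGAA or TTCC (the same core on the other strand) in capitals, because these letters are present in 1 of the 4 and absent from the others.
Ep300, chr15:81586114-81586213, plus strand: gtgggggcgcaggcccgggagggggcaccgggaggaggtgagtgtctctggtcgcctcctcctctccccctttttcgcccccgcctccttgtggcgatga
Crebbp, chr16:4213405-4213504, minus strand: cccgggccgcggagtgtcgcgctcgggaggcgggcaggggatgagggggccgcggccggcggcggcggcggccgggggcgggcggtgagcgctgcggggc
Kat6b, chr14:21499670-21499769, plus strand: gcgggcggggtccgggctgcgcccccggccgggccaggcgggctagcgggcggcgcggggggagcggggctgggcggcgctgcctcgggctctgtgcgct
Kat7, chr11:95310247-95310346, minus strand: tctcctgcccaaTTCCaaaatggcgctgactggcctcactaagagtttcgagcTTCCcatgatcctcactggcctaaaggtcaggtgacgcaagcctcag

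The stretches of Ep300, Crebbp and Kat6b held 0 core letters on either strand, and 71%, 88% and 87% of their bases were G or C. The stretch of Kat7 held 2 cores at 54% G or C. The first-listed windows of Kat2a, Kat2b and Kat5 held 3 each at 55%, 47% and 52%, and a second listed window held 4 at 52% for Kat2b and 1 at 73% for Kat5. Over all promoters in the table, 66.8% of such stretches held at least 1 core, and their median G or C share was 55%.

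The longer letters CCGGAAG, which contain the core and are preferred by GABP and several other ETS factors, were searched on both strands (CTTCCGG on the other) from 250 bases before to 50 bases after each start. They occurred in windows of 2 of the 7 genes, and in 9.93% of the 27025 genes with a window. They are in capitals in the 30-base sites that follow, which show where they lay.
Kat7, chr11:95310228-95310257, minus strand: gcaagcctcagCCGGAAGttaaggaatagg
Kat5, chr19:5610063-5610092, minus strand: cgcactcagctCCGGAAGtgacgtctccca
Kat5, chr19:5610045-5610074, minus strand: tgacgtctcccagaggggCCGGAAGtggca

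The Kat7 letters began at base 1 of the annotated transcript, and those of Kat5 at bases 14 and 39. A match describes the sequence only, and no match says only that these letters are not in this window. The expression values follow gene by gene.

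Of the 8 genes, 7 had a mean below the controls on the arrays labelled deficient and 1, Kat5, above, where 33.7% of all probe sets and 43.3% of the brighter 50% had a difference below 0. Ep300, Kat6b and Crebbp had the largest differences. At an unadjusted p under 0.05, 4 were lower (Kat6b, Crebbp, Ep300 and Kat7) and 0 higher, against the same 5.25% and 6.64% of all 35556 probe sets. In the brighter 50% of probe sets, in which all 8 members lay, the shares were 8.34% and 7.63%. The members were chosen with earlier results of these data known, so counts over them, here and below, do not test the set. At an adjusted p under 0.05, 0 members and 0 probe sets (0%) passed in limma's moderated fit, so single genes are given as values. The median difference over the 8 genes was −0.89, against 0.15 over all probe sets. Without control replicate 1 the count was 2 lower and 0 higher, and the median −0.62.

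**Figure D1:**
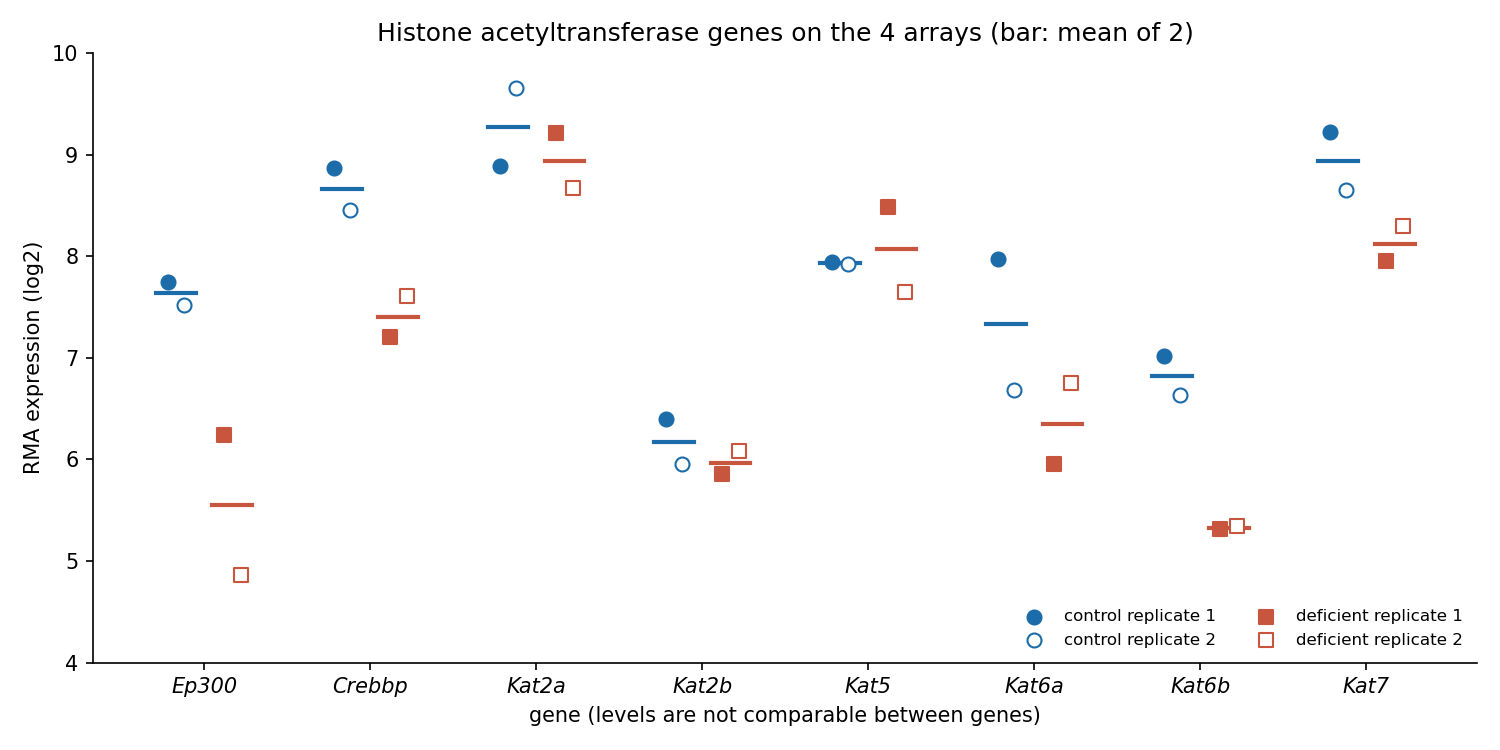
RMA expression (log2, vertical axis) of the 8 genes on control arrays (circles) and arrays labelled deficient (squares), filled for replicate 1 and open for replicate 2, with bars at the mean of 2. The 2 groups stand apart for Ep300, Crebbp, Kat6b and Kat7 and overlap for the other 4 genes.

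The means of both enhancer coactivators, p300 and CBP, were lower on the arrays labelled deficient. Ep300 read 7.75 and 7.52 on control replicates 1 and 2, and 6.24 and 4.87 on deficient replicates 1 and 2. Both arrays labelled deficient lay below both controls, and they lay farther from each other than the controls did. The group means of 7.64 ± 0.16 (SD, n = 2) and 5.55 ± 0.97 differed by −2.08 on the log2 scale (SE 0.52), or 4.23-fold lower (limma adjusted p = 0.391). The value of 4.87 stood at the 25.1 percentile of its array, whose lower quartile was 4.86, while the control values stood at the 79.1 and 77.4 percentiles. Without deficient replicate 2 the difference was −1.39, and without control replicate 1 or 2 the unadjusted p was 0.0855 or 0.0674.

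Crebbp read 8.86 and 8.45 in the control replicates and 7.20 and 7.61 in the deficient-labelled ones. Here too both arrays labelled deficient lay below both controls, and the spread within each group was alike. The means were 8.66 ± 0.29 and 7.40 ± 0.29, a difference of −1.25 (SE 0.25), or 2.38-fold lower (limma adjusted p = 0.338). Its unadjusted p was under 0.05 in all 10 alternatives to the processing, from 0.00698 to 0.0412.

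Whether Ep300 differed more than its paralogue was read within arrays, which removes any shift that an array's probe sets share. Ep300 minus Crebbp was −1.11 and −0.93 in the control replicates and −0.96 and −2.74 in the deficient-labelled ones, so the groups overlapped. The gap between the genes differed by −0.83 between the groups, and that value was 0.064 without deficient replicate 2. The exact two-sided permutation test gave p = 0.667 (adjusted p = 1 over 3 paralogue pairs), where the smallest p that 2 against 2 arrays allow is 0.333. No pair could therefore pass.

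GCN5 and PCAF, the SAGA and ATAC enzymes, did not stand apart between the groups. Kat2a read 8.89 and 9.65 in the control replicates and 9.21 and 8.67 in the deficient-labelled ones. The groups overlapped, with a difference of −0.33 (SE 0.36, limma adjusted p = 0.647). The 95% interval of that difference ran from −1.36 to 0.70, so a change of 2-fold in the lower direction is within it. Without control replicate 2 the difference was 0.051.

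Kat2b read 6.39 and 5.95, against 5.86 and 6.08, and the groups overlapped again. The difference was −0.20 (SE 0.22, limma adjusted p = 0.645), with a 95% interval from −0.84 to 0.43, and it was 0.016 without control replicate 1. Within arrays, Kat2a minus Kat2b differed between the groups by −0.13 (exact permutation p = 1, two-sided), a value that took the other sign after cyclic loess (0.013) and without control replicate 2 (0.48) or deficient replicate 2 (0.25).

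Among the MYST enzymes, the pair of MOZ and MORF differed in how well their arrays agreed. Kat6b, which encodes MORF, read 7.02 and 6.63 in the control replicates and 5.31 and 5.34 in the deficient-labelled ones. Both arrays labelled deficient lay below both controls and close to each other. These low values stood at the 35.7 and 34.4 percentiles of their arrays, below the array medians. The control values stood at the 70.4 and 64.8 percentiles. Whether low signal bears on the small spread was not tested. The means were 6.83 ± 0.28 and 5.33 ± 0.018, a difference of −1.50 (SE 0.20), or 2.83-fold lower (limma adjusted p = 0.254). Kat6b had the smallest unadjusted p of the 8 genes (0.00192), and it was under 0.05 in all 10 alternatives, at most 0.0130.

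Kat6a, which encodes MOZ, read 7.98 and 6.68 in the control replicates and 5.95 and 6.75 in the deficient-labelled ones. Control replicate 1 lay above the other 3 arrays, and deficient replicate 2 lay above control replicate 2, so the groups overlapped. The difference was −0.98 (SE 0.57, limma adjusted p = 0.477), with a 95% interval from −2.59 to 0.64. It was −0.33 without control replicate 1, −0.58 without deficient replicate 1 and −1.63 without control replicate 2, where its unadjusted p was 0.0446. Within arrays, Kat6a minus Kat6b was 0.96 and 0.049 in the control replicates and 0.64 and 1.41 in the deficient-labelled ones (exact permutation p = 0.667, two-sided, with the same smallest p of 0.333), and the groups overlapped.

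Kat7, which encodes HBO1, read 9.22 and 8.65 in the control replicates and 7.95 and 8.29 in the deficient-labelled ones. The groups did not overlap, but control replicate 2 and deficient replicate 2 lay near each other. The difference was −0.81 (SE 0.28), or 1.76-fold lower (limma adjusted p = 0.414). Its unadjusted p of 0.0454 rested on the setting: it was under 0.05 in 3 of 10 alternatives, and 0.148 without control replicate 1, 0.162 without deficient replicate 1 and 0.0671 without deficient replicate 2. The differences in those 3 cases were −0.53, −0.64 and −0.98.

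Kat5, which encodes TIP60, was the 1 member with a mean above the controls. It read 7.94 and 7.92 in the control replicates and 8.48 and 7.65 in the deficient-labelled ones, on either side of the controls. The difference was 0.13 (SE 0.33, limma adjusted p = 0.842), with a 95% interval from −0.80 to 1.07, and it was −0.28 without deficient replicate 1. Its interval and that of Kat6b, from −2.05 to −0.94, did not overlap, though a difference between these genes was not tested.

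**Figure D2:**
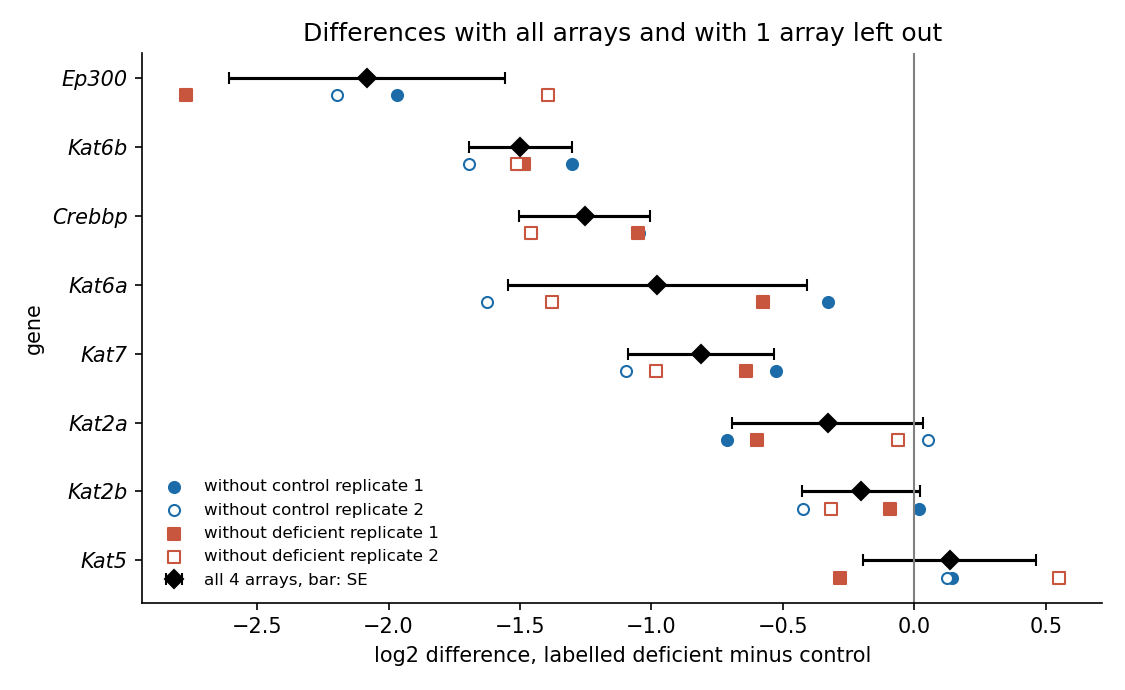
Log2 difference (labelled deficient minus control, horizontal axis) of each gene with all 4 arrays (diamonds, bars: SE) and with 1 array left out (circles: a control array, squares: an array labelled deficient; markers can hide each other). Ep300, Kat6b, Crebbp, Kat6a and Kat7 stay below 0 in every case, and Kat2a, Kat2b and Kat5 take both signs.

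The groups did not overlap for 4 of the 8 genes, all 4 lower, where 14% of all probe sets were apart in that direction and 38.9% in the other (20.2% and 32% in the brighter 50%). Against all named genes, 0.597% had a lower difference than Ep300, 2.03% than Kat6b, 3.39% than Crebbp, 5.92% than Kat6a and 8.17% than Kat7. For Kat2a, Kat2b and Kat5 the shares were 18.1%, 22.1% and 45.9%.

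**Figure D3:**
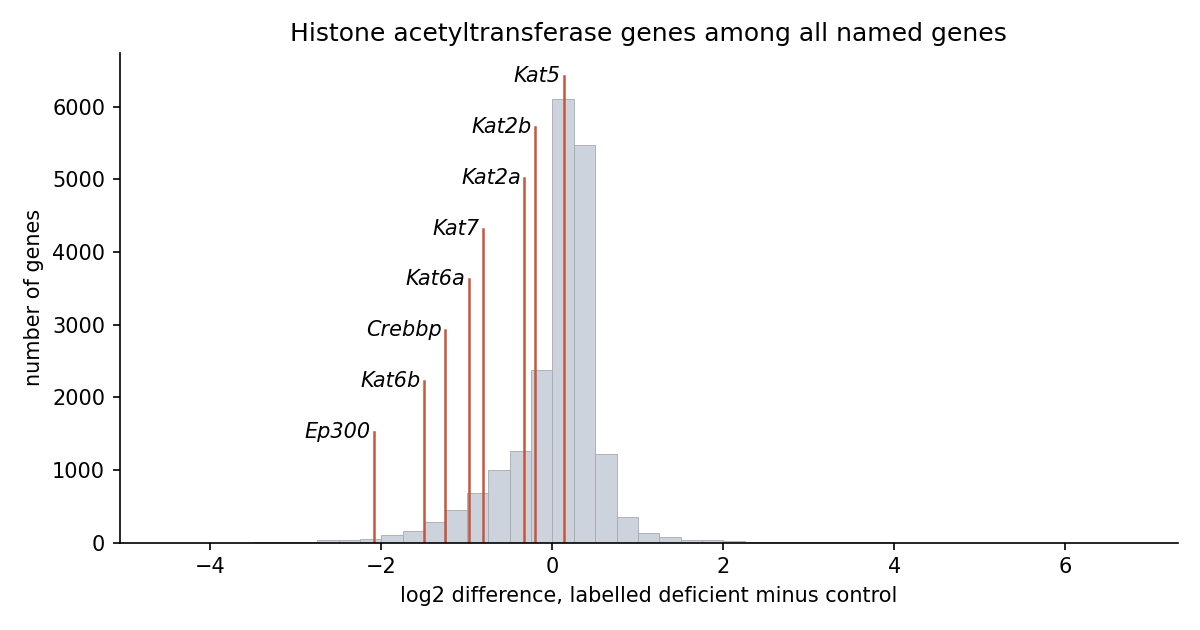
Number of named genes (vertical axis) by log2 difference (labelled deficient minus control, bins of 0.25), with a line for each of the 8 genes; the height of a line carries no value. Ep300, at −2.08, lies in the thin lower tail, and Kat5, at 0.13, in the tallest bin.

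The arrays of each group were also compared with each other, gene by gene. On the arrays labelled deficient, replicate 1 was below replicate 2 for 5 of the 8 genes, while Ep300, Kat5 and Kat2a were higher on replicate 1. Replicate 1 minus replicate 2 was −0.80 for Kat6a, −0.41 for Crebbp and −0.34 for Kat7, against 1.38 for Ep300. On the control arrays, replicate 1 was above replicate 2 for 7 of 8, all but Kat2a. The matching shares over all probe sets were not counted, so neither count is a result about these genes. Likeness to other genes was measured as the root mean square distance over the 4 arrays after each gene's own mean was subtracted. The 5 genes closest to Ep300 were Cxcr2, Serpinb1a, Pip5k1b, Rtf1 and Kctd1, at 0.094 to 0.16 log2 units. Those closest to Crebbp were Ptpre, Api5, Scaf8, Phf20 and Bnip3l, at 0.038 to 0.052. Of the members, Kat6b was nearest to both, at rank 249 for Ep300 and 149 for Crebbp, and Crebbp ranked 793 for Ep300. With 4 arrays such distances describe these libraries only.

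Subunits that carry the enzymes were read next, from 9 lists on acetylation with 141 different genes, of which 138 were measured and 8 stood in more than 1 list. The lists were chosen with earlier results of these data known, and 0 of their genes passed an adjusted p under 0.05. Counts below are at an unadjusted p under 0.05, which 5.25% of all probe sets passed as lower and 6.64% as higher (8.34% and 7.63% in the brighter 50%); a list share near these is not a result about the list. Of the 24 genes named below that passed, 7 did so in every alternative that could be run for them (Taf12, Gata1, Bptf, Baz2b, Cecr2, Sirt3 and Sirt7) and 17 missed in at least 1.

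For SAGA and ATAC, the complexes of GCN5 and PCAF, 2 of 22 genes were lower and 1 higher, with a median difference of −0.19 that was 0.014 without deficient replicate 2. Zzz3, an ATAC subunit, read 7.89 and 6.64 in the control replicates and 5.36 and 5.44 in the deficient-labelled ones (difference −1.86, SE 0.47). Supt3, a SAGA core subunit, differed by −1.06 (SE 0.29), and Taf12, a histone-fold subunit shared with TFIID, by 1.28 (SE 0.22). Usp22, the SAGA deubiquitinase, differed by −0.71 (SE 0.30), which did not pass, and by −0.35 without deficient replicate 2 and −1.08 without deficient replicate 1. The Zzz3 difference was −1.24 without control replicate 1.

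For TIP60, 2 of 17 genes were lower and 0 higher, with a median of −0.23 that was 0.032 without deficient replicate 2, −0.091 without control replicate 1, −0.14 without deficient replicate 1 and −0.35 without control replicate 2. Ing3, a reader of methylated histone tails, averaged 9.14 ± 0.19 (SD, n = 2) in the control replicates and read 5.75 and 7.34 in the deficient-labelled ones. It differed by −2.60 (SE 0.60), and by −1.81 without deficient replicate 1. Ep400, the ATPase of the complex, differed by −0.60 (SE 0.16). Mbtd1 differed by −0.40 (SE 0.15) and the scaffold gene Epc1 by −0.34 (SE 0.14), and neither passed.

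For the complexes of MOZ, MORF and HBO1, 2 of 9 genes were lower and 0 higher, with a median of −0.38 that was −0.19 without deficient replicate 2 and −0.25 without control replicate 1. These were the scaffold genes Brd1, with a difference of −0.60 (SE 0.17), and Jade3, with −0.73 (SE 0.25). The related Jade2 and Jade1 differed by −0.69 (SE 0.30) and −0.53 (SE 0.25) and did not pass. Without control replicate 1 the Jade3 difference was −0.45 and the Jade1 difference −0.25, and without deficient replicate 1 the Jade2 difference was −0.43.

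For MOF, the MYST enzyme outside the 8 members, 2 of 10 genes were lower and 1 higher, with a median of −0.42. The enzyme gene itself, Kat8, was the one that was higher: it read 7.77 and 7.92 in the control replicates and 8.61 and 8.44 in the deficient-labelled ones (difference 0.68, SE 0.16, limma adjusted p = 0.376). The NSL complex genes Kansl1 and Phf20 differed by −1.20 (SE 0.27) and −1.17 (SE 0.27). With all probe sets of a gene averaged, the Kansl1 difference was −0.83 and the Phf20 difference −0.65. Phf20 then had an unadjusted limma p of 0.0546, so it did not pass. Kansl3 differed by −0.54 (SE 0.27), which did not pass, and by −0.22 without deficient replicate 2 and −0.86 without deficient replicate 1. The catalytic subunit and 2 of its partners thus had opposite signs, and none of these signs changed under the alternatives tried.

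Among acetyltransferases other than the members, 4 of 17 were lower and 1, Kat8, higher, with a median of −0.26 that was −0.46 without deficient replicate 2. This list was not limited to enzymes that act on histones, and also held Atat1, Nat10, Esco1 and Esco2. Ncoa3 and Ncoa2, nuclear receptor coactivators that recruit p300 and CBP, differed by −1.53 (SE 0.40) and −1.21 (SE 0.29). Atf2, a transcription factor with reported acetyltransferase activity, differed by −1.60 (SE 0.43), and by −1.06 without control replicate 1. Of the DNA-bound and adaptor partners of p300 and CBP, 6 of 20 were lower and 3 higher, with a median of −0.071 that was 0.012 without control replicate 1, −0.35 without control replicate 2 and −0.19 without deficient replicate 1 or after cyclic loess. Ncoa2 and Ncoa3 stood in this list too and were counted as lower in both, so the counts are not separate. Gata1, the erythroid factor acetylated by CBP, read 7.52 and 7.54 in the control replicates and 8.87 and 8.52 in the deficient-labelled ones (difference 1.16, SE 0.19), on the arrays where erythroid markers were also higher. Stat3 differed by −1.05 (SE 0.26) and Tcf3, the E2A gene, by 0.66 (SE 0.17).

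Readers of acetyl-lysine had 7 of 23 genes lower and 1 higher, with a median of −0.49 that was −0.22 without control replicate 1. Bptf, the large subunit of the NURF remodeller, differed by −1.35 (SE 0.21), Baz2b by −0.83 (SE 0.14) and Brwd1 by −0.74 (SE 0.18). Cecr2, a bromodomain partner of ISWI remodellers, had the opposite sign at 0.81 (SE 0.17).

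The opposing enzymes, deacetylases and sirtuins, had 1 of 18 genes lower and 2 higher, with a median of 0.14 that was −0.063 after cyclic loess, −0.037 without deficient replicate 1 and 0.088 without control replicate 1. Sirt3, the mitochondrial sirtuin, differed by −0.94 (SE 0.18) and Sirt7, a nucleolar sirtuin, by 0.74 (SE 0.14). Hdac3, the deacetylase of nuclear corepressor complexes, differed by 1.06 (SE 0.35), and Sirt1 by −0.59 (SE 0.23), which did not pass and was −0.33 without control replicate 1. Enzymes and carriers that supply acetyl-CoA had 0 of 10 genes lower and 1 higher, with a median of 0.28 that was 0.14 without control replicate 2 and 0.43 without control replicate 1. That gene was Crat, carnitine acetyltransferase, at 0.62 (SE 0.20). Acss1, a mitochondrial acetyl-CoA synthetase, differed by 1.11 (SE 0.45), Acat1 by −0.60 (SE 0.35) and Pdha1 by 0.26 (SE 0.15), and none of these passed. With 1 array left out the ranges were 0.51 to 1.70 for Acss1 (its ends without deficient replicate 1 and 2), −0.99 to −0.22 for Acat1 (likewise) and 0.17 to 0.34 for Pdha1 (without deficient replicate 2 and 1). The medians of the 8 acetyltransferases (−0.89) and of the deacetylases and sirtuins (0.14) are set side by side, and their difference was not tested.

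**Figure D4:**
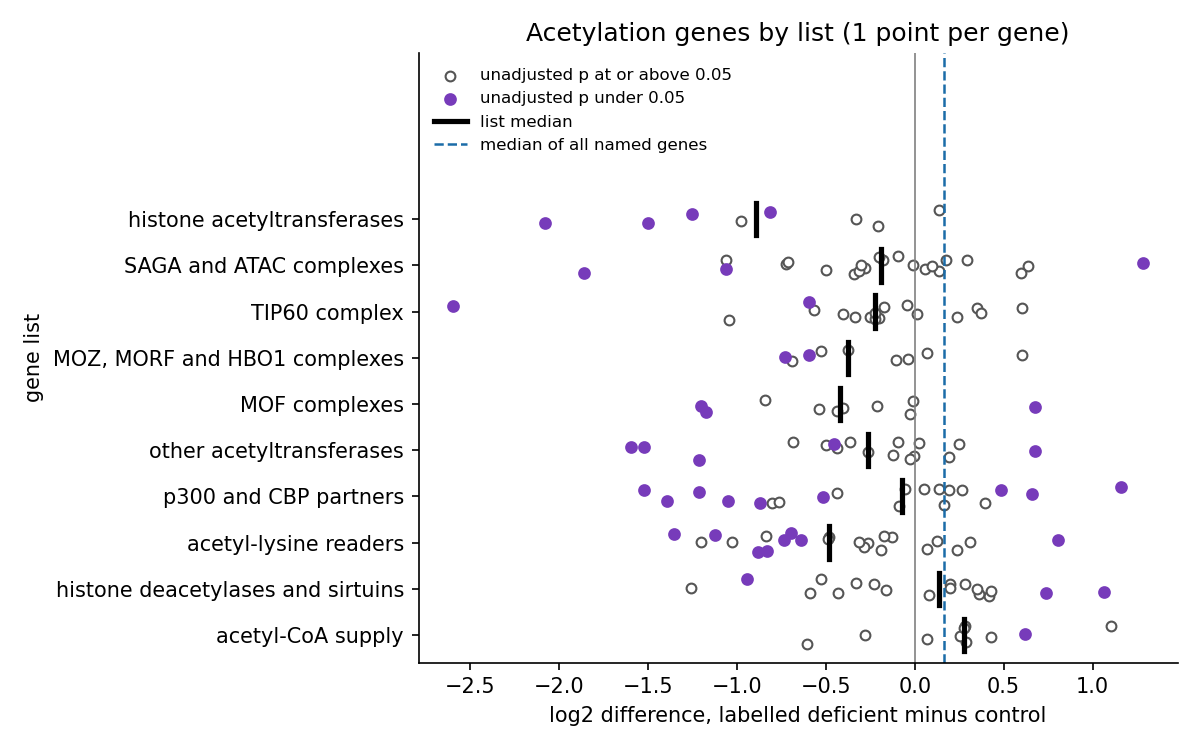
Log2 difference (labelled deficient minus control, horizontal axis) of every measured gene of the 8 acetyltransferases and 9 further lists, filled where the unadjusted p was under 0.05, with list medians (black bars) and the median of all named genes (dashed line, 0.16). The 8 member genes have the lowest median, at −0.89, against −0.26 for the other acetyltransferases, a list not limited to enzymes that act on histones. The acetyl-CoA supply genes have the highest, at 0.28 (0.14 without control replicate 2).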

How the data were processed

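The deposited table holds 1 log2 value per probe set and array, which the authors made with RMA and Partek, per the submitters' processing notes, with no versions given. Their annotation and genome build were not given in the sources used here. RMA already includes background correction, quantile normalization and a summary over probes, so the values were used without a further logarithm or scaling. The 4 arrays had medians of 5.87 to 6.01, and their quartiles were not equal. Lower quartiles were 4.68 and 4.73 on control replicates 1 and 2, and 4.77 and 4.86 on the deficient-labelled ones. Upper quartiles were 7.39 and 7.33 on the controls, and 7.24 and 7.18 on the deficient-labelled ones. All 4 value columns were matched to samples, and 0 were left over. Precision is limited by the number of arrays, and detection calls were not used.

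Of 35556 probe sets, 21789 had 1 gene symbol in the platform annotation, 1621 several and 12146 none. Symbols were updated by Entrez number through RefSeq's GRCm38.p6 gene table. Where a gene had several single-symbol probe sets, the brightest stood for it. Groups were compared in R 4.3.3 with limma 3.58.1 (lmFit and eBayes, genotype as the only term), with Benjamini-Hochberg adjustment over all probe sets. Differences are labelled deficient minus control. The fit was tested on simulated data. Members and lists were chosen with earlier results of these data known. All members were named, and in each list the 4 genes with the smallest unadjusted p. Counts of GGAA and of G or C upstream of starts were added after the promoters had been seen. A planned comparison of protein sequences was not run, since no protein table was used here. Alternatives were leaving out each array, a replicate block, cyclic loess, array medians subtracted, the dimmer 50% of probe sets removed, an intensity trend and averaged probe sets. Plots come from matplotlib 3.10.9 (Python 3.11.15).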

Additional observations from a re-analysis of the deposited data

How the results depend on the processing

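Ep300, Crebbp, Kat6a, Kat6b and Kat7 kept a difference below 0 in all 10 alternatives, and no member passed an adjusted p under 0.05 in any, the lowest being 0.215 for Kat6b. With 1 array left out, the count of members lower at an unadjusted p under 0.05 ran from 2 to 4 and their median difference from −1.28 to −0.62. Ranges that crossed 0 were −0.71 to 0.051 for Kat2a, −0.43 to 0.016 for Kat2b and −0.28 to 0.55 for Kat5. Within arrays they were −1.72 to 0.064 for Ep300 minus Crebbp and −0.73 to 0.48 for Kat2a minus Kat2b, which was also turned by cyclic loess (0.013). With the replicate block the Ep300 difference was −2.08 at an adjusted p of 0.522, and 3 members were lower at an unadjusted p under 0.05. Same-numbered arrays did not deviate together (correlation −0.088 over probe sets), but 4 arrays cannot show whether same-numbered samples were paired. Lists were put through the same alternatives after the data had been seen. Of 338 values of their 34 named genes, 0 changed sign. Of 90 list medians 5 changed sign: deacetylases and sirtuins after cyclic loess (−0.063), and 4 with 1 array left out. Their ranges were −0.037 to 0.14 for deacetylases and sirtuins, −0.35 to 0.012 for partners of p300 and CBP, −0.25 to 0.014 for SAGA and ATAC and −0.35 to 0.032 for TIP60. The cause was not tested. Cyclic loess moved the median of all probe sets from 0.15 to −0.0045.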

Other observations

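Kat6a and Kat2b ordered the 4 arrays as Gabpa did: control replicate 1 highest, then deficient replicate 2, control replicate 2 and deficient replicate 1. The other 6 acetyltransferase genes had other orders. With 4 arrays this is a description of these libraries, and its relation to Gabpa was not tested. The share of all probe sets with the Gabpa order was not counted, so the match is not a result about these genes.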
